A study of Mus musculus with 7 samples.

Results

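The genes described here encode the enzymes and transporters that build glycosaminoglycan chains and decorate them with sulfate. They are 43 genes, listed by name as the enzymes of the linker, of chondroitin, dermatan and heparan sulfate, and of precursor supply, and all 43 were found among the 47729 gene identifiers of the count table. All 43 also passed the filter on low counts. RNA was sequenced from mouse aorta, with 4 libraries labelled wild type (Wt in the labels, WT here) and 3 labelled MMP19KO (KO here). The series design gives the second genotype as Mmp19-/-, a loss of the secreted matrix metalloproteinase MMP19, and the title links this protease to the proteoglycan aggrecan. Both groups were labelled only by genotype and tissue. The sources used here do not give how the allele was made, nor the strain, age, sex or treatment of the mice, nor whether each library came from a separate mouse. P-values therefore measure the spread between these 7 libraries, which may be technical.

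Glycosaminoglycans are long sugar chains carried by proteoglycans. A short linker sugar is first built on a serine of the core protein, and the next sugar added decides between a chondroitin chain, which may be turned into dermatan sulfate, and a heparan chain. Sulfotransferases then place sulfate groups along the chain, and their pattern sets which growth factors, proteases and lipoproteins the chain binds. In the artery wall the chondroitin and dermatan chains of versican, aggrecan, biglycan and decorin hold water and lipoproteins, and the heparan chains of perlecan, syndecans and glypicans hold growth factors.

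Deposited counts summed to between 68151472 and 76926790 per library. *Mmp19* read 24.8, 24.8, 20.7 and 34.7 CPM (counts per 1000000 of the TMM-scaled library size) in WT replicates 1 to 4, and 25.5, 12.0 and 15.9 CPM in KO replicates 1 to 3. KO replicate 1 lay inside the WT range, and the log2 fold change was -0.56 (SE 0.29, adjusted p = 0.368 in edgeR). Counts per gene do not show whether a deleted exon was read, so these values do not check the labels. *Acan*, the aggrecan gene, averaged 34.0 ± 11.6 CPM in WT (SD, n = 4) and 99.0 ± 29.0 CPM in KO (SD, n = 3). The defining markers of smooth muscle were present in every library. The summed level of 12 contractile markers was 20727 to 23084 CPM in WT and 4554 to 15847 CPM in KO, with KO replicate 1 lowest and KO replicate 2 highest among the KO libraries. The summed level of 16 macrophage markers was 335 to 584 CPM in WT and 755 to 4494 CPM in KO, in the opposite order of the KO libraries. The labels name no batch.

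Most genes of glycosaminoglycan synthesis differed little between KO and WT, as did most genes of the whole table. Among the 43 genes, 33 had a log2 fold change of less than 0.4 in size. The median size was 0.26, against 0.29 over all 19188 genes tested. Of the 43, 22 were positive and 21 negative, and the median was 0.02, against -0.03 over all genes tested. The genes with the smallest p were *Hs6st2*, *Chst11*, *Dse* and *Hs2st1*, which were higher in KO, and *Chst3*, which was lower. In edgeR's quasi-likelihood test with Benjamini-Hochberg adjustment over all genes, 0 of the 43 passed the threshold of 0.05, where 0.0156% of all genes did. DESeq2, with its own adjustment, called these 5 genes, 4 higher and 1 lower, with no adjusted p for *Chst13*. That is 11.6% of the 43, where DESeq2 called 8.37% of all genes, 5.32% higher and 3.05% lower. At an unadjusted edgeR p under 0.05 stood 6 of the 43 (14%), the same 5 and *Chst12*, beside 17.2% of all genes. Of these 6, 4 were higher and 2 lower, beside 9.92% and 7.27% of all genes. The KO and WT libraries did not overlap for 6 of the 43 (14%), 3 above WT and 3 below, beside 16.7% of all genes (8.17% above and 8.56% below). The share among the synthesis genes was thus below that of the whole table by edgeR's unadjusted p and by overlap, and above it by DESeq2. The order by unadjusted p also changed with the filter and with the libraries used. With no filter the share was 14%, beside 12.6% of all genes. Leaving out WT replicate 1 gave 14.3% beside 14.2%, and leaving out WT replicate 3 gave 14% beside 13.7%. It stayed below all genes without WT replicate 2 (11.6% and 14.7%), WT replicate 4 (11.9% and 12.7%) or KO replicate 3 (9.3% and 13.7%). Without KO replicate 1, 9 of the 43 (20.9%) had an unadjusted edgeR p under 0.05, beside 11.4% of all genes. Without KO replicate 2, there were 11 (25.6%), beside 22.4% of all genes, and edgeR then called *Chst3*, *Chst11* and *Hs6st2* among 1029 genes in all. With limma-voom, which weights libraries by quality, 12 of the 43 (27.9%) had an unadjusted p under 0.05, beside 20.3% of all genes.

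**Figure D1:**
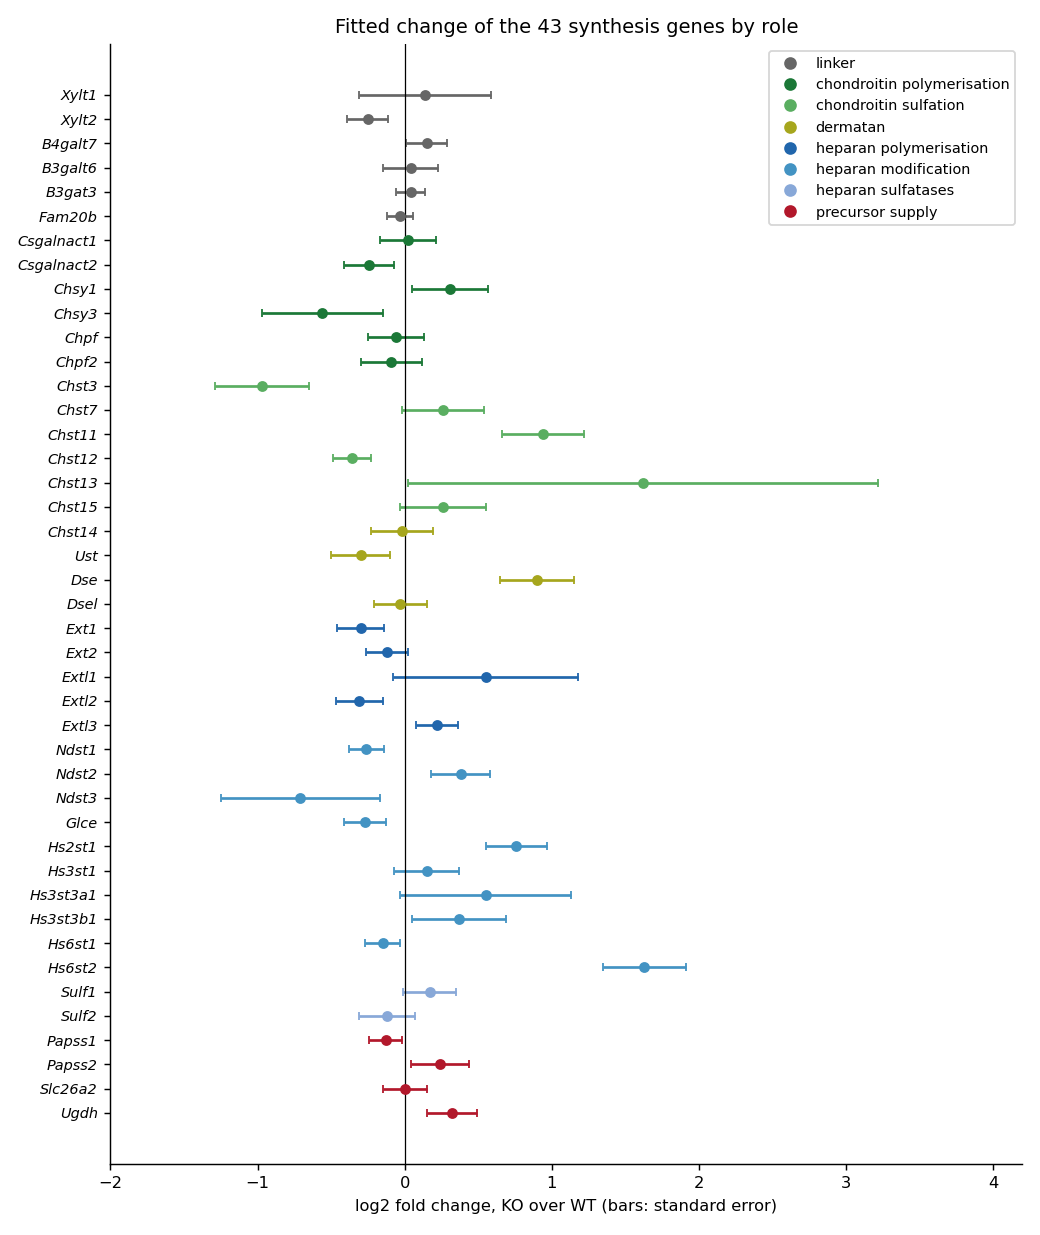
Log2 fold change of KO over WT (x axis) for each of the 43 genes (y axis), coloured by role. Bars give the standard error worked back from edgeR's F statistic. Most points lie close to 0, *Hs6st2* stands at 1.63 and *Chst3* at -0.97, and *Chst13*, at 1.62, has the widest bar.

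The promoters of the 5 genes that DESeq2 called are shown because these genes had the smallest p-values of the 43, although edgeR called none of them. Each window runs from 250 bases before to 50 bases after the annotated start, 5′ to 3′ on the gene's own strand, from RefSeq on GRCm38.p6. *Hs6st2* has a pair of annotated starts (chrX:51681553-51681852, minus strand, and chrX:51680428-51680727, minus strand). The others are *Hs2st1* (chr3:144570167-144570466, minus strand), *Dse* (chr10:34207186-34207485, minus strand), *Chst11* (chr10:82985247-82985546, plus strand) and *Chst3* (chr10:60219211-60219510, minus strand). Capitals mark a GC box (GGGCGG) or a TATA box (TATAAA) on either strand.
Hs6st2, upstream start: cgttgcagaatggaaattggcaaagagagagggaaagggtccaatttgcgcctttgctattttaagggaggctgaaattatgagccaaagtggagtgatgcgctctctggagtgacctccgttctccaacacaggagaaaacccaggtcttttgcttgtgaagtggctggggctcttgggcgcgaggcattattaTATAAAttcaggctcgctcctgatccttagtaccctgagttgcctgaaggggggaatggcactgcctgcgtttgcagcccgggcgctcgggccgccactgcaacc
Hs6st2, downstream start: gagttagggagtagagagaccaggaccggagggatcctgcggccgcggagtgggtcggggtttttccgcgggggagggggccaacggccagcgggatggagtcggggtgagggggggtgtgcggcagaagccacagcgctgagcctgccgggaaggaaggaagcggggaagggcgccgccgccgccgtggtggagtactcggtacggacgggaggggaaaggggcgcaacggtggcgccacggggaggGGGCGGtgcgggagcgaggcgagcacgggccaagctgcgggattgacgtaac
Hs2st1: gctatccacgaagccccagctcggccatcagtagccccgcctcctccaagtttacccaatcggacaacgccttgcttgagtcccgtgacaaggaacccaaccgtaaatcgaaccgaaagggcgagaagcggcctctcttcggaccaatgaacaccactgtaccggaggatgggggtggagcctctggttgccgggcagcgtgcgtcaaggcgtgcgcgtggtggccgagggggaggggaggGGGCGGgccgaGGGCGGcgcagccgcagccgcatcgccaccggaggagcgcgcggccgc
Dse: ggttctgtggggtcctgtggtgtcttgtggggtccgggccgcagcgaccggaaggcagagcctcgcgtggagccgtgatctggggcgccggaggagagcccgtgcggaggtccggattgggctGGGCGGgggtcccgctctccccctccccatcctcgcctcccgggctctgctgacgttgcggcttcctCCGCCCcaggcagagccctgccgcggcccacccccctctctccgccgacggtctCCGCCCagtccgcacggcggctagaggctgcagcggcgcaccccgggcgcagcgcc
Chst11: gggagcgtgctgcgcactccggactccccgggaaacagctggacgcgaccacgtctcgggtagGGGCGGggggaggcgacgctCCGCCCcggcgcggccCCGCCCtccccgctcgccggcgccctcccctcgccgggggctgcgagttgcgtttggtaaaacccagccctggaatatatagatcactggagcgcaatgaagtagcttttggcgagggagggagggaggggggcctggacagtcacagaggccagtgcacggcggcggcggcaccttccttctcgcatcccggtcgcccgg
Chst3: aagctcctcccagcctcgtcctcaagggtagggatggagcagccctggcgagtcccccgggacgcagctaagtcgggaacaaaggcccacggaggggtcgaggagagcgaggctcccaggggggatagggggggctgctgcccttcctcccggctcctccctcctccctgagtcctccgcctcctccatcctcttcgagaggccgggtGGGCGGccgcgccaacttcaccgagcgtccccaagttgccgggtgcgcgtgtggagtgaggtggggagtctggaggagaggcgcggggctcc
The upstream *Hs6st2* window holds a TATA box that begins 55 bases before the start, and no GC box. The other 5 windows hold at least 1 GC box and no TATA box. Both strands were also searched for the CArG box that serum response factor binds, for the AP-1 motif TGANTCA and for the TCF/LEF core TCAAAG, and none of these is in the 6 windows. Of the 43 genes 35 had at least 1 promoter window in the RefSeq table, 44 windows in all. A GC box was in 63.6% of these, against 35.7% of all 32851 windows, and the windows of these genes were richer in G and C, with a median of 65.3% against 52.7%. A TATA box was in 4.55% and 13.6%, the AP-1 motif in 2.27% and 7.81%, the TCF/LEF core in 4.55% and 16.0%, and the CArG box in 0% and 1.63%. In the windows shown, no match overlapped another.

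The linker enzymes were close to equal in KO and WT. Xylose is placed on the core protein by *Xylt1* and *Xylt2*, the galactoses by *B4galt7* and *B3galt6*, and glucuronic acid by *B3gat3*, while *Fam20b* phosphorylates the xylose. The 6 genes had log2 fold changes between -0.25 and 0.15. Of them 0 had an unadjusted edgeR p under 0.05, beside 17.2% of all genes. *Xylt2* had such a p with limma-voom and in edgeR without KO replicate 1. *B3gat3* had the highest level per exon length of the 6, at 10.6 ± 0.515 CPM per kb in WT (SD, n = 4) and 10.9 ± 0.699 in KO (SD, n = 3). Its libraries read 26.5, 27.0, 29.3 and 26.7 CPM in WT and 30.2, 26.6 and 27.6 CPM in KO, so that the groups overlapped. *Fam20b* read 66.7 to 72.7 CPM in WT and 64.8 to 72.0 CPM in KO. *Xylt1* was the most variable, at 13.8 to 35.4 CPM in WT and 13.6 to 41.9 CPM in KO, and replicate 1 was the highest library in each group. *Xylt2*, its partner enzyme, read 29.0 to 37.1 CPM in WT and 24.9 to 32.0 CPM in KO.

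In edgeR with all libraries, the polymerising enzymes of chondroitin likewise showed no difference beyond the spread. *Csgalnact1* and *Csgalnact2* add the N-acetylgalactosamine that commits the linker to chondroitin, and *Chsy1*, *Chsy3* and the polymerising factors *Chpf* and *Chpf2* extend the chain. Their log2 fold changes lay between -0.56 and 0.31. At an unadjusted edgeR p under 0.05 stood 0 of 6, beside 17.2% of all genes. *Chsy3* had such a p with limma-voom, and *Csgalnact2* in edgeR without KO replicate 2. *Chpf* was the most abundant per exon length, with 27.5 ± 5.71 CPM per kb in WT (SD, n = 4) and 26.4 ± 4.52 in KO (SD, n = 3), and read 134, 84.1, 93.4 and 113 CPM in WT and 113, 111 and 81.8 CPM in KO. *Chsy1* read 60.8 to 74.5 CPM in WT and 131, 74.5 and 57.7 CPM in KO replicates 1 to 3, so that 1 KO library stood above the others and 1 below all WT libraries. *Chsy3*, its less abundant relative, was at 7.99 to 17.8 CPM in WT and 3.97 to 11.8 CPM in KO. Exons of *Chpf2* share 2466 of their 5588 bases with those of *Smarcd3* on the other strand. Without a stated strand setting, its reads cannot be told apart from those of that gene there.

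Chondroitin sulfation genes differed among themselves in direction. *Chst11*, which places sulfate on the 4-O position of N-acetylgalactosamine, was the higher one in KO, and *Chst3*, which places it on the 6-O position, was lower. *Chst11* (ENSMUSG00000034612, chromosome 10, 82985498 to 83195900, GRCm38) read 27.7, 40.1, 22.8 and 28.5 CPM in WT and 73.3, 35.4 and 63.0 CPM in KO replicates 1 to 3. KO replicates 1 and 3 lay above all WT libraries, and KO replicate 2 lay inside their range. The means were 29.8 ± 7.34 CPM in WT (SD, n = 4) and 57.2 ± 19.6 CPM in KO (SD, n = 3), with a log2 fold change of 0.94 (SE 0.28). Adjusted p-values were 0.189 in edgeR and 0.0315 in DESeq2, and the exact 2-sided permutation p over the 35 ways to divide the libraries was 0.0857. *Chst3* (ENSMUSG00000057337, chromosome 10, 60181532 to 60219260) read 73.0, 42.3, 58.3 and 61.3 CPM in WT and 18.8, 46.0 and 25.4 CPM in KO. Again KO replicates 1 and 3 lay outside the WT range, below it, and KO replicate 2 inside. The *Chst3* means were 58.7 ± 12.7 and 30.1 ± 14.2 CPM (SD, n = 4 and 3), with a log2 fold change of -0.97 (SE 0.32, adjusted p = 0.215 in edgeR and 0.0459 in DESeq2, exact permutation p = 0.0857). Without KO replicate 2, edgeR gave adjusted p-values of 0.0387 for *Chst11* and 0.0364 for *Chst3*. Over the alternatives run, these ran from 0.0315 to 0.513 for *Chst11* and from 0.0364 to 0.512 for *Chst3*.

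*Chst12*, the other abundant 4-O sulfotransferase, went the other way from *Chst11*. It read 52.6, 43.3, 43.6 and 49.7 CPM in WT and 42.4, 35.7 and 32.1 CPM in KO, so that every KO library lay below every WT library, by a small margin (chromosome 5, 140505550 to 140525724). Its log2 fold change was -0.36 (SE 0.13), with adjusted p-values of 0.234 in edgeR and 0.163 in DESeq2, and 0.0852 to 0.51 over the alternatives. The exact permutation p of 0.0286 is the smallest that 7 libraries in groups of 4 and 3 can give. Genes were given in full partly because their groups did not overlap, and without overlap this p tends to lie at or near that limit. For such genes, here and below, it adds no separate support. Of all genes tested, 16.7% did not overlap. *Chst12* was also the most abundant of the chondroitin sulfotransferases per exon length, with 20 ± 1.93 CPM per kb in WT and 15.6 ± 2.20 in KO (SD, n = 4 and 3). *Chst11* was at 5.39 ± 1.33 and 10.4 ± 3.55 CPM per kb on the same scale. *Chst13*, the third 4-O enzyme, was close to undetected, at 0.501, 0, 0 and 0.176 CPM in WT and 1.40, 0.0571 and 0.104 CPM in KO. Low deposited values pile up at multiples of 4, so a 0 in WT replicates 2 and 3 allows up to 0.169 and 0.172 CPM, taken as 3 fragments of 4 deposited counts each (counting error only). KO replicates 2 and 3 lay under the same limit in their own libraries. *Chst7*, the other 6-O enzyme, read 5.11 to 6.75 CPM in WT and 4.2 to 9.20 CPM in KO. *Chst15*, which adds a further sulfate to units already sulfated at 4-O, read 27.1 to 57.5 CPM in WT and 37.3 to 60.3 CPM in KO, and 1206 of its 6754 exon bases overlap an antisense gene, *Gm10584*.

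Among the dermatan enzymes 1 epimerase was higher in KO. *Dse* converts glucuronic to iduronic acid along chondroitin chains, which makes them dermatan sulfate, and *Dsel* encodes a related epimerase. *Dse* (ENSMUSG00000039497, chromosome 10, 34151393 to 34207715) read 52.6, 35, 35.9 and 45.0 CPM in WT and 111, 63.9 and 61.6 CPM in KO. All KO values exceeded the highest WT value, and KO replicate 1 stood well above KO replicates 2 and 3. The means were 42.1 ± 8.33 and 78.9 ± 28.0 CPM (SD, n = 4 and 3), and the log2 fold change was 0.90 (SE 0.25, adjusted p = 0.181 in edgeR and 0.0219 in DESeq2, exact permutation p = 0.0286). Leaving out KO replicate 1 gave a log2 fold change of 0.57, and the adjusted p ran from 0.0219 to 0.448 over the alternatives. *Dsel* read 30.6 to 51.8 CPM in WT and 39.2 to 46.1 CPM in KO. The sulfotransferases *Chst14*, which fixes iduronic acid by sulfating the sugar beside it, and *Ust*, which sulfates the uronic acid itself, read 14.3 to 19.9 and 24.5 to 37.5 CPM in WT, and 13.7 to 22.1 and 20.2 to 28.7 CPM in KO.

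**Figure D2:**
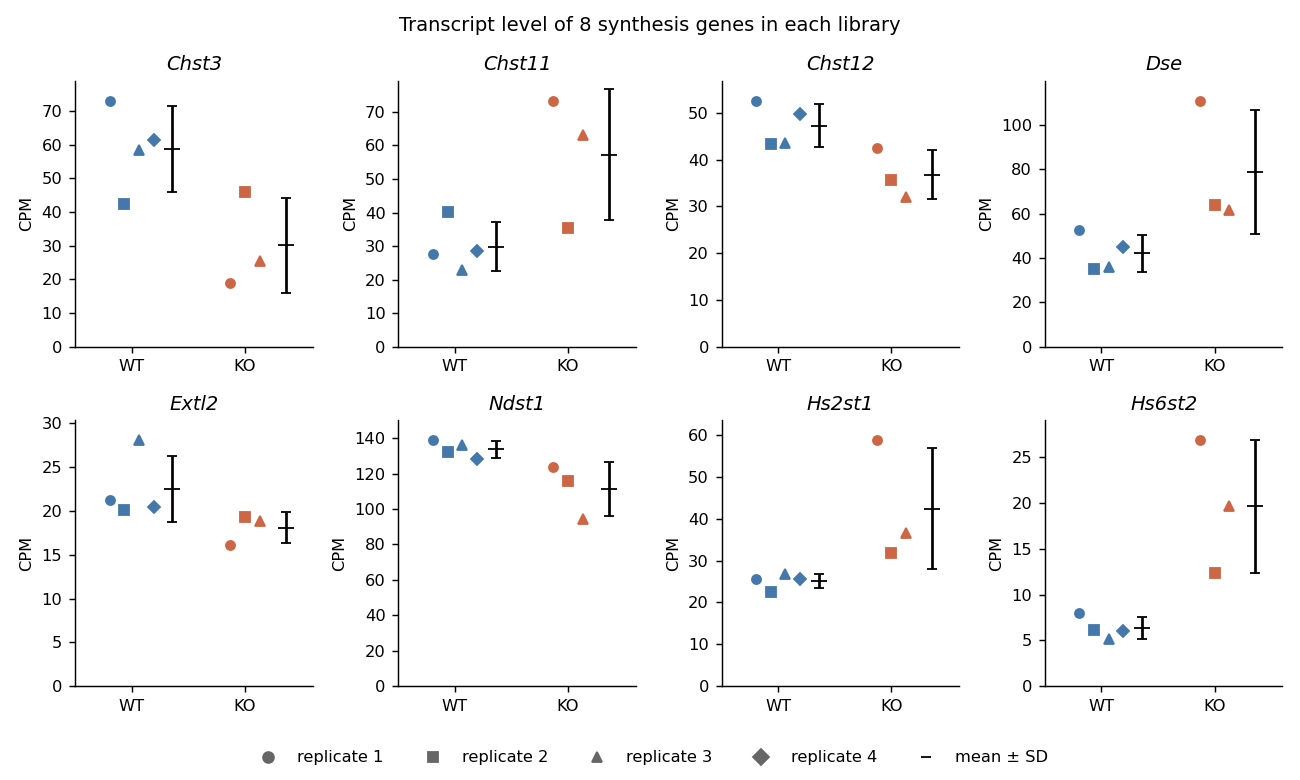
Level in CPM (y axes, from 0) of the 8 genes with an unadjusted edgeR p under 0.05 or with groups that do not overlap, in each of the 4 WT and 3 KO libraries; marker shapes give the replicate number, and black bars the mean ± SD. *Hs6st2* shows the widest gap as a ratio, from 8.01 CPM in the highest WT library to 12.4 CPM in the lowest KO library, and KO replicate 2 is the KO library nearest to WT for *Chst3*, *Chst11*, *Hs2st1* and *Hs6st2*.

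Heparan chains are begun by *Extl3* and extended by the polymerase of *Ext1* and *Ext2*, while *Extl2* can cap a phosphorylated linker and so end a chain early. None of the 5 genes with *Extl1* had an unadjusted edgeR p under 0.05, beside 17.2% of all genes. Their log2 fold changes lay between -0.31 and 0.55. With limma-voom *Ext1* had an unadjusted p under 0.05, and so did *Extl3* in edgeR without KO replicate 2. *Ext1* had the highest level per exon length, with 18.8 ± 2.83 CPM per kb in WT and 15.3 ± 2.35 in KO (SD, n = 4 and 3). It read 182, 143, 128 and 154 CPM in WT and 131, 138 and 102 CPM in KO, and the groups overlapped. *Extl2* (chromosome 3, 116007462 to 116029017) read 21.2, 20.1, 28.1 and 20.5 CPM in WT and 16.1, 19.3 and 18.9 CPM in KO. The highest KO value was under the lowest WT value, yet the gap was small beside the spread (log2 fold change -0.31, SE 0.16, adjusted p = 0.369 in edgeR, exact permutation p = 0.0571). *Extl3* read 70.6 to 79.0 CPM in WT and 74.6 to 109 CPM in KO, and *Ext2* 69.9 to 92.2 and 66.1 to 82.6 CPM. *Extl1* was hardly detected, at 0.204 to 0.774 CPM in WT and 0.285 to 1.35 CPM in KO.

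The heparan modifying enzymes held the largest difference of the whole group. *Hs6st2*, a heparan 6-O-sulfotransferase, was about 3-fold higher in KO. *Hs6st2* (ENSMUSG00000062184, chromosome X, 51387212 to 51681856) read 8.01, 6.17, 5.18 and 6.01 CPM in WT and 26.9, 12.4 and 19.7 CPM in KO. The groups did not overlap, and KO replicate 1 was the highest. The means were 6.34 ± 1.19 and 19.6 ± 7.23 CPM (SD, n = 4 and 3), and the log2 fold change was 1.63 (SE 0.28, adjusted p = 0.165 in edgeR and 3.09e-05 in DESeq2, exact permutation p = 0.0286). Without KO replicate 2 edgeR gave an adjusted p of 0.0213, and over the alternatives the log2 fold change ran from 1.33 to 1.93 and the adjusted p from 3.09e-05 to 0.473. In whole aorta, more cells that make a transcript and more transcript per cell cannot be told apart. *Hs6st1*, the main enzyme of the same reaction here, read 34.4, 38.1, 37.2 and 36.5 CPM in WT and 37.7, 33.0 and 28.4 CPM in KO, with overlap.

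*Hs2st1*, which sulfates the 2-O position of the uronic acid, was the other heparan gene that DESeq2 called (ENSMUSG00000040151, chromosome 3, 144429706 to 144570181). It read 25.5, 22.6, 26.7 and 25.5 CPM in WT and 58.8, 31.7 and 36.6 CPM in KO. The WT libraries lay within a narrow range, and each KO library lay above it. The means were 25.1 ± 1.76 and 42.3 ± 14.5 CPM (SD, n = 4 and 3), with a log2 fold change of 0.76 (SE 0.21, adjusted p = 0.183 in edgeR and 0.0331 in DESeq2, exact permutation p = 0.0286). With KO replicate 1 left out it was 0.44, and the adjusted p ran from 0.0331 to 0.48 over the alternatives. *Ndst1*, the main enzyme that swaps acetyl for sulfate on glucosamine, read 139, 132, 136 and 128 CPM in WT and 124, 116 and 94.2 CPM in KO. Here every KO library lay below every WT library, with a log2 fold change of -0.26 (SE 0.12, adjusted p = 0.32 in edgeR and 0.294 in DESeq2, and 0.118 to 0.567 over the alternatives). *Ndst1* had the highest level per exon length of the modifying enzymes, 16.1 ± 0.554 CPM per kb in WT and 13.5 ± 1.87 in KO (SD, n = 4 and 3). Its relative *Ndst2* read 20.1 to 24.7 CPM in WT and 39.0, 22.5 and 24.3 CPM in KO, and *Ndst3* was at 2.53 to 6.72 and 1.48 to 4.93 CPM.

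*Glce*, the epimerase of heparan chains, read 32.7 to 47.1 CPM in WT and 30.8 to 33.0 CPM in KO. The 3-O-sulfotransferases, which make the rarest modification, were low. *Hs3st1*, whose product binds antithrombin, read 7.58 to 10.4 CPM in WT and 7.78 to 12.0 CPM in KO. *Hs3st3a1* was at 0.268 to 1.47 and 0.751 to 1.79 CPM, and *Hs3st3b1* at 1.55 to 2.78 and 1.87 to 3.41 CPM. This pair shares sequence, since 8.82% of the 75-base words in *Hs3st3a1* transcripts are also in *Hs3st3b1*, so reads there may be split between them. *Hs3st3a1* also overlaps *F930015N05Rik* on the other strand over 1295 of 3939 exon bases.

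The extracellular sulfatases *Sulf1* and *Sulf2*, which remove 6-O sulfate from finished heparan chains, were the most abundant genes of the group. *Sulf2* had 41.7 ± 8.57 CPM per kb in WT and 38.4 ± 5.20 in KO, and *Sulf1* 28.9 ± 3.61 and 32.4 ± 7.48 CPM per kb (SD, n = 4 and 3). *Sulf2* read 311, 202, 210 and 256 CPM in WT and 242, 244 and 190 CPM in KO. *Sulf1* read 355, 288, 295 and 368 CPM in WT and 313, 464 and 323 CPM in KO, so that KO replicate 2 alone lay above the WT range. The log2 fold changes of 0.17 (SE 0.18) for *Sulf1* and -0.12 (SE 0.19) for *Sulf2* did not exceed their errors.

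Supply of sulfate and sugar donors did not separate the groups. *Papss1* and *Papss2* make the sulfate donor PAPS, *Slc26a2* imports sulfate, and *Ugdh* makes the glucuronic acid donor. Of the 4 genes 0 had an unadjusted edgeR p under 0.05, beside 17.2% of all genes. The log2 fold changes lay between -0.13 and 0.32. *Ugdh* passed this limit without KO replicate 2 and with the replicate number as a block, and *Papss2* without WT replicate 1. *Papss1* had the highest WT level per exon length, 13.1 ± 0.751 CPM per kb (SD, n = 4), and 12.0 ± 1.23 in KO (SD, n = 3). It read 38.3, 37.9, 42.8 and 40.8 CPM in WT and 40.9, 34.8 and 34.1 CPM in KO. *Ugdh* read 58.2 to 80.8 CPM in WT and 107, 73.3 and 80.4 CPM in KO. In KO replicate 1 the median of the 4 genes stood 0.39 above the WT mean on the log2 scale, while KO replicates 2 and 3 stood at -0.05 and -0.04, inside the WT range.

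**Figure D3:**
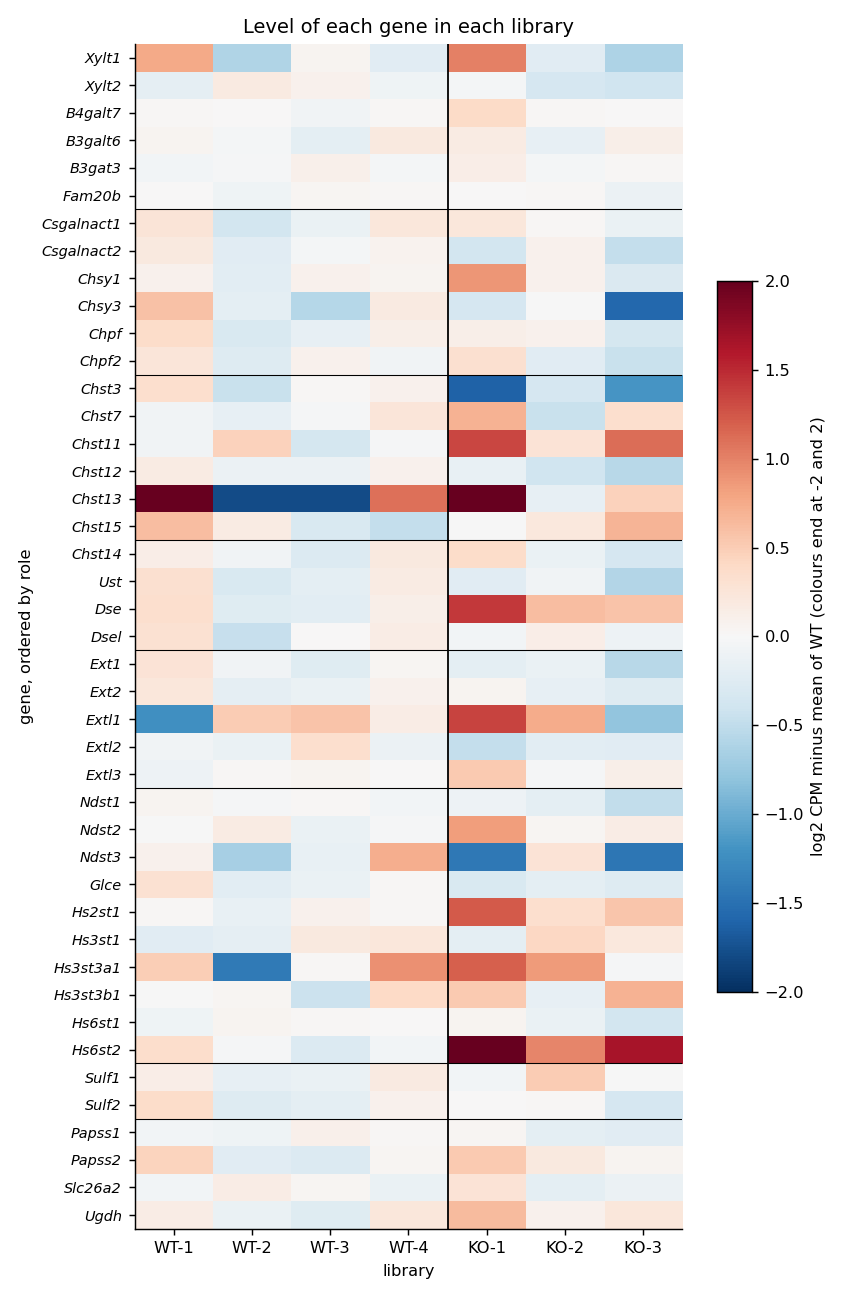
Level of each of the 43 genes (rows, ordered by role) in each library (columns), as log2 CPM minus the mean of the WT libraries, on a colour scale that ends at -2 and 2. *Hs6st2*, *Dse* and *Hs2st1* are above the WT mean in all KO libraries, *Chst3* is lowest in KO replicates 1 and 3, and the strong colours of *Chst13*, *Extl1* and *Hs3st3a1* belong to genes near the limit of detection.

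The chondroitin and heparan branches were compared next. Of the 16 chondroitin and dermatan genes 7 were positive and 9 negative by log2 fold change, and the median was -0.03. Of the 17 heparan genes 9 were positive and 8 negative, with a median of 0.15. Over all genes the median was -0.03, and 46.9% were positive. In WT, the per-library median of log2 CPM minus the WT mean ran from -0.24 to 0.28 for the chondroitin branch and from -0.14 to 0.05 for the heparan branch. In KO replicates 1, 2 and 3 it was 0.17, 0.01 and -0.31 for chondroitin, and 0.05, 0.02 and -0.23 for heparan. KO replicate 3 alone lay below the WT range, in both branches. The heparan median was 0.01 without KO replicate 1 and 0.01 without KO replicate 2. It turned negative only with limma-voom, at -0.20. The chondroitin median turned positive in more settings, among them 0.10 without WT replicate 1, 0.06 without KO replicate 2 and 0.09 without KO replicate 3. The sign was thus not stable in either branch. Both branches contributed to the genes that DESeq2 called, with *Chst3*, *Chst11* and *Dse* in the chondroitin and *Hs2st1* and *Hs6st2* in the heparan branch. Summed per exon length, heparan transcripts stood to chondroitin transcripts as 1.09 ± 0.0461 in WT (SD, n = 4) and 1.06 ± 0.106 in KO (SD, n = 3), with overlapping libraries.

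**Figure D4:**
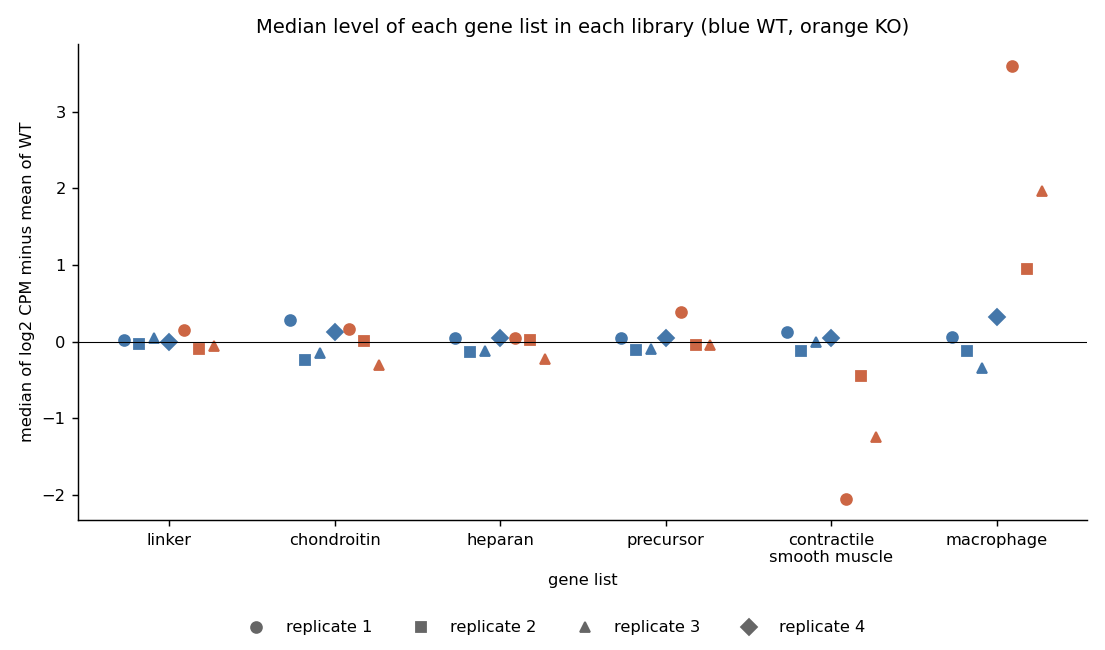
Median over the genes of each list (x axis) of log2 CPM minus the WT mean (y axis) in each library, WT in blue and KO in orange, with marker shapes for the replicate number. The linker, chondroitin, heparan and precursor medians lie between -0.31 and 0.39 in all libraries, while the contractile list is at -2.05 and the macrophage list reaches 3.60 in KO replicate 1.

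Within several pairs of enzymes that do the same step, the balance of transcripts separated the groups, and within others it did not. These ratios were chosen after the values had been seen, are computed from CPM per kb of exon and carry no test. *Hs6st2* made up 14.2%, 10.3%, 8.99% and 10.5% of the *Hs6st1* and *Hs6st2* transcripts in WT, and 33.6%, 21.1% and 33.0% in KO. *Ndst1* stood to *Ndst2* as 3.50, 2.93, 3.71 and 3.25 in WT, and as 1.75, 2.83 and 2.13 in KO. For both pairs the libraries of the groups did not overlap, and the less abundant enzyme had the larger share in KO. For *Ndst1* and *Ndst2* the gap was narrow, from 2.93 in WT replicate 2 to 2.83 in KO replicate 2. Of all single genes tested, 16.7% did not overlap, and no such share was computed for ratios. *Hs6st2*, *Ndst1* and *Dse* also did not overlap as single genes, so their ratios partly repeat those differences. *Dse* stood to *Dsel* as 1.18, 1.32, 0.987 and 1.12 in WT and as 3.18, 1.6 and 1.82 in KO. *Chst11* stood to *Chst12* as 0.225, 0.396, 0.223 and 0.245 in WT and as 0.74, 0.423 and 0.838 in KO. *Sulf1* stood to *Sulf2* as 0.593 to 0.747 in WT and 0.673 to 0.986 in KO, with overlap. All 4-O enzymes together stood to the 6-O enzymes of chondroitin as 2.01, 2.90, 1.96 and 2.10 in WT and as 4.54, 2.40 and 3.49 in KO, so that the groups overlapped through KO replicate 2. The summed 4-O level itself was 25.5 ± 2.11 CPM per kb in WT and 26.2 ± 5.34 in KO, and the 6-O level 11.6 ± 2.07 and 7.74 ± 1.07 (SD, n = 4 and 3).

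**Figure D5:**
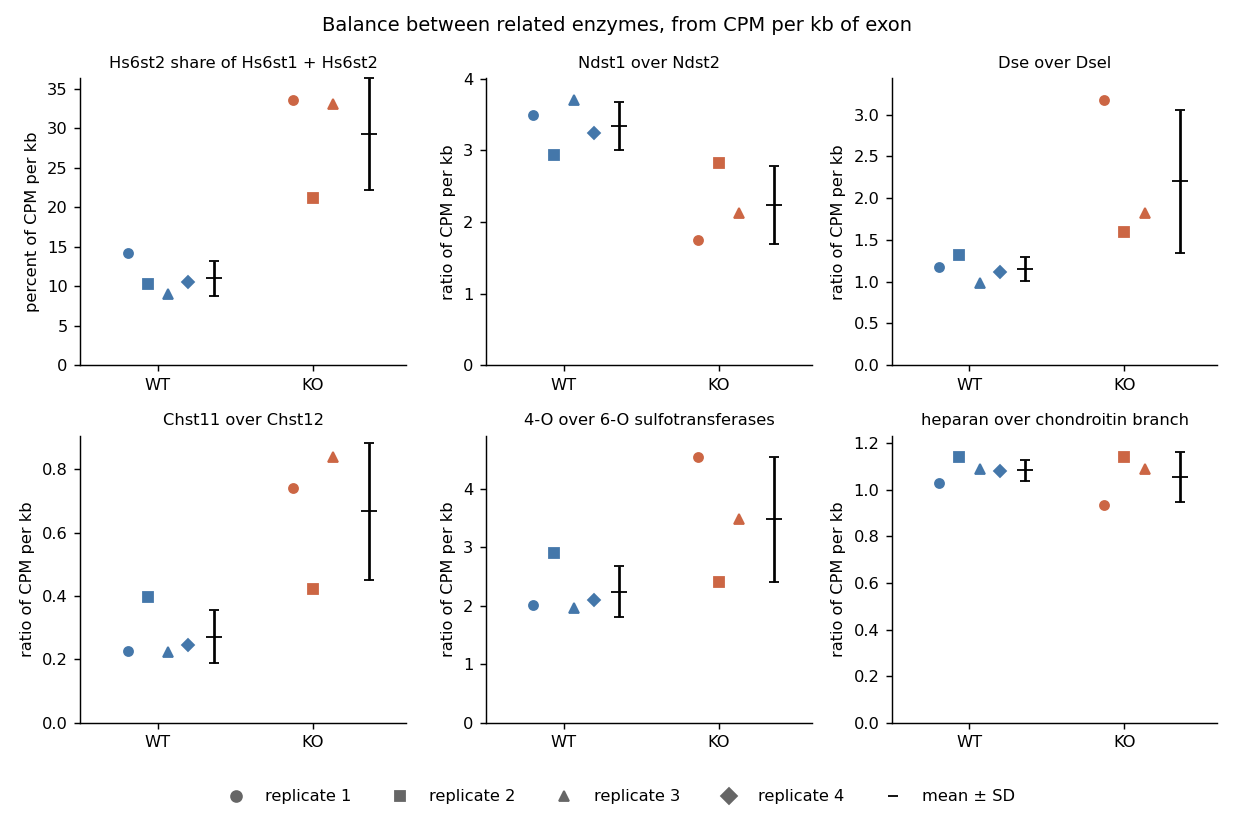
Ratio or share of related transcripts from CPM per kb of exon (y axes, from 0) in each WT and KO library, with marker shapes for the replicate number and black bars for the mean ± SD. *Hs6st2* is at most 14.2% of the *Hs6st1* and *Hs6st2* transcripts in WT and at least 21.1% in KO, and the heparan to chondroitin ratio overlaps between the groups.

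Cell type markers also differed between KO and WT. All 12 contractile smooth muscle markers were lower in KO by the sign of the log2 fold change (median -1.09), and DESeq2 called 8 of them lower. Their median deviation from WT was -2.05, -0.45 and -1.25 in KO replicates 1, 2 and 3. All 16 macrophage markers were positive (median 2.52), and DESeq2 called all 16 higher, with deviations of 3.60, 0.94 and 1.96. *Chst11*, *Hs2st1* and *Hs6st2* were highest in KO replicate 1, then 3, then 2, the order of the macrophage medians. *Chst3* and *Extl2* were lowest in KO replicate 1, then 3, then 2, the order of the contractile medians. *Chst12* and *Ndst1*, also lower in KO, did not follow that order. Among the KO libraries they were highest in replicate 1 and lowest in replicate 3. *Dse* was highest in KO replicate 1 and lowest in replicate 3. The share of all genes with each of these orders was not counted. Over all genes tested, KO replicate 2 lay nearer to the WT libraries than KO replicate 1 did. The chi-square per gene against WT libraries was 22.5 to 44.6 for KO replicate 2 and 196 to 245 for KO replicate 1. The 10 fibroblast markers had a median log2 fold change of -0.26, with a deviation of -0.68 in KO replicate 1 beside -0.20 to 0.16 in WT. The 10 endothelial markers had a median of -0.09, with -0.45 in KO replicate 1 beside -0.09 to 0.10 in WT. KO replicate 1 was also the library with the highest *Dse*, *Hs2st1*, *Hs6st2* and *Chst11*. Summed neutrophil markers read 9.58 to 18.6 CPM in WT and 480, 14.7 and 65.1 CPM in KO. The 8 striated muscle markers summed to 23.5 to 102 CPM in WT and 635, 1109 and 104 CPM in KO, the 10 cartilage markers to 39.1 to 90.2 and 74.8 to 220 CPM, with *Matn1* under 0.1 CPM in all libraries. The part of these cell types in the synthesis genes was not tested.

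Other genes of the pathway were read from lists of related function. Among 15 tested genes of sugar nucleotide supply, transport and further synthesis steps, 0 passed edgeR or DESeq2 (1 had no DESeq2 adjusted p). By log2 fold change 10 were positive and 5 negative, from -1.82 to 0.61, with a median of 0.17. At an unadjusted edgeR p under 0.05 stood 3, all higher. They are *Uap1*, which makes UDP-N-acetylglucosamine (74.5 ± 7.92 CPM in WT and 106 ± 27.2 in KO), *Gfpt1*, the entry enzyme of that route (61.8 ± 5.34 and 81.7 ± 18.8), and *Uxs1*, which makes the xylose donor (19.4 ± 1.23 and 25.1 ± 5.09; SD, n = 4 and 3). Of 17 breakdown genes (median 0.04) 0 passed edgeR and 5 had an unadjusted p under 0.05, 4 higher and 1 lower. DESeq2 called 1 higher and 1 lower. The lower one was *Hyal1*, a hyaluronidase (89.7 ± 4.91 and 47.0 ± 20.2 CPM, DESeq2 adjusted p = 0.0193). *Hpse*, heparanase, which cuts heparan chains, read 3.86 to 5.92 CPM in WT and 20.9, 5.04 and 8.43 CPM in KO. Of 8 tested genes listed for keratan sulfate (median 0.30) edgeR called 0, with 1 at an unadjusted p under 0.05, and DESeq2 called that 1, *B3gnt7*, which extends keratan chains, at 0.605 ± 0.172 CPM in WT and 2.58 ± 1.43 CPM in KO (DESeq2 adjusted p = 0.00113). Of 28 tested core proteins (median 0.06) DESeq2 called 6 higher and 2 lower and edgeR 0. At an unadjusted edgeR p under 0.05 stood 11, 7 higher and 4 lower. The 4 with the smallest p were *Acan*, *Epyc*, a small leucine-rich proteoglycan (2.92 ± 1.09 and 8.29 ± 1.71 CPM), *Srgn*, the proteoglycan of blood cell granules (30.0 ± 3.14 and 82.6 ± 44.0 CPM), and *Sdc3*, a syndecan (95.5 ± 17.1 and 227 ± 110 CPM in WT and KO; SD, n = 4 and 3). Over all genes the median was -0.03, 17.2% had an unadjusted edgeR p under 0.05, and DESeq2 called 5.32% higher and 3.05% lower.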

How the data were processed

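Total RNA of mouse aorta (2 µg per library) was made into libraries, per the labels' protocols, using the SMARTER mRNA-Seq reagents. The authors deposited 1 table of whole numbers per gene for 7 libraries, read here as estimated counts without scaling, since low values pile up at multiples of 4. The submitters' processing notes name GRCm38 and mm10. Aligner, counter, annotation and strand: not given in the sources used here. Of 47729 identifiers 47224 matched a symbol. Positions and exon lengths come from GENCODE M21 (GRCm38).

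Counts were tested in R 4.3.3 with edgeR 4.0.16 (filterByExpr, TMM, glmQLFit and glmQLFTest at package defaults, no covariates, Benjamini-Hochberg over 19188 genes, threshold 0.05). The SE given with edgeR is the size of the log2 fold change over the square root of its F statistic. CPM use TMM-scaled library sizes. Deviations use log2 CPM with a prior count of 2. Permutation tests are exact and 2-sided on log2 CPM over 35 splits. DESeq2 1.42.0, limma-voom (limma 3.58.1), other scalings and filters, the replicate block and leaving out each library were alternatives. The procedure was tested on simulated data. Every pair of libraries differed by more than sampling noise. The lowest chi-square per gene, 22.5, was across the genotypes, between WT replicate 4 and KO replicate 2. Pairs of WT libraries gave 25.1 to 63.9, and KO replicate 2 gave 163 with KO replicate 1 and 53.4 with KO replicate 3.

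Members and lists were chosen with earlier results of these data known. Values in every library are given for genes with an unadjusted p under 0.05 or without overlap, and for the highest per length in each role. Other pathway lists name up to 4 genes with the smallest p. 1 gene of these lists is not reported here. *Sulf1*, *Hs6st1* and *Chst13* were given in full after their values were seen.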

Additional observations from a re-analysis of the deposited data

Results flagged for a closer look

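In 3 of the 43 genes 1 WT library stood apart from the other 3 by more than Dixon's 95% critical value for the gap as a share of the whole range, a limit that chance passes in about 1 of 20 groups. The gap was 0.843 of the range for *B4galt7*, where WT replicate 3 was low at 14.6 CPM beside 15.4 to 15.6 CPM. It was 0.873 for *Chsy1*, where WT replicate 2 was low at 60.8 CPM beside 72.8 to 74.5 CPM. It was 0.869 for *Extl2*, where WT replicate 3 was high at 28.1 CPM beside 20.1 to 21.2 CPM. The KO group, with 3 libraries, was not looked at in this way.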

How the results depend on the processing

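The count of 3 genes called over the whole table moved to 0 without a filter, to 7 with the filter of 50 counts in 3 libraries, with limma-voom or with counts divided by 4, to 5 with edgeR's bias-adjusted fit (chosen after seeing the data) and to 1606 with DESeq2. Leaving out 1 library gave 0 to 1029, the latter without KO replicate 2. The 0 synthesis genes called became 5 with DESeq2 and 0 to 3 when 1 library was left out. The linker median of 0.04 was -0.04 with limma-voom and -0.04 to 0.16 with 1 library left out. The heparan median of 0.15 was -0.20 with limma-voom and 0.01 to 0.23 with 1 library left out. The chondroitin median of -0.03 ran from -0.16 to 0.10 and so changed sign, but moved by less than the WT spread under all 16 alternatives. That spread was wider than for the other lists, an SD of 0.24 against 0.11 for heparan and 0.03 for linker. The 8 genes given with fold changes in full kept their direction in all 16. The causes were not tested. Of the other 35 genes, up to 7 changed sign with 1 library left out. The planned legacy fit is the default of this edgeR version and so is the reported one.

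With the replicate number as a block, 0 genes were called over the whole table, the linker median was 0.01, and 4 of the 43 synthesis genes (9.3%) had an unadjusted p under 0.05, beside 9.95% of all genes. *Chst3*, *Chst11* and *Chst12* were no longer among them, and *Ugdh* was. Same-numbered libraries correlated by 0.0545, 0.0691 and 0.34 in their deviations from the group means, and KO replicates 1 and 2 correlated better with other WT libraries, so the numbers were not taken as pairs. Depth limits *Chst13*, *Extl1* and *Hs3st3a1*, each at 1.79 CPM or less in every library.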

Other observations

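Summed over the 43 genes, synthesis transcripts were 2493, 1971, 2045 and 2280 CPM in WT replicates 1 to 4 and 2460, 2297 and 1955 CPM in KO replicates 1 to 3, and the ranges of the groups overlapped. The 29 listed core proteins, which carry the chains, summed to 9306 to 14417 CPM in WT and 8411 to 10991 CPM in KO. The 17 breakdown genes summed to 883 to 1012 CPM in WT and 1251, 912 and 890 CPM in KO, with KO replicate 1 alone above the WT range.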
